A study of Arabidopsis thaliana with 12 samples.

Results

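RNA-directed DNA methylation is the pathway by which Arabidopsis thaliana places new cytosine methylation on transposons and repeats, and 10 genes around it were followed here through a seedling RNA-seq experiment. They were picked by locus identifier for their roles in the pathway from the 32833 genes of the deposited count table. The polymerase subunit genes are NRPD1 (AT1G63020), NRPE1 (AT2G40030) and NRPD2 (AT3G23780). Those of small RNA production are SHH1 (AT1G15215), RDR2 (AT4G11130) and DCL3 (AT3G43920), and the effectors are AGO4 (AT2G27040), DRD1 (AT2G16390) and DRM2 (AT5G14620). The opposing gene is the demethylase gene ROS1 (AT2G36490). Exon lengths run from 1208 bases in SHH1 to 6644 in NRPE1. RNA was read from whole seedlings, 12 days after germination, of the wild type Columbia-0 and of 3 mutants, nrpb2-3, ssrp1-2 and spt16-2. Each genotype had 3 libraries, 12 in all. The plants stood on soil in long days at about 21 °C after 4 days of cold treatment of the seeds at 4 °C, and no group carries a transgene or a treatment by the labels. NRPB2 encodes a large subunit of RNA polymerase II, and SSRP1 and SPT16 encode the partners of the histone chaperone FACT, which opens nucleosomes for transcription. The labels name 1 allele of each gene and say nothing of how much function it retains, and they do not say whether the replicates were separate sowings, so p-values measure the spread between these libraries, which may be technical.

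As background, the pathway starts with RNA polymerase IV, which SHH1 brings to methylated chromatin. RDR2 copies the Pol IV transcripts into double-stranded RNA, DCL3 cuts this into small interfering RNAs, and AGO4 loads them. RNA polymerase V, helped by the remodeller DRD1, makes a scaffold transcript at the target, where the loaded AGO4 guides the methyltransferase DRM2. ROS1 works against the pathway by cutting out methylated cytosine, and its own promoter is known to be held active by RNA-directed methylation. In whole seedlings all of these transcripts are measured together, and fewer cells of a type and less RNA per cell cannot be told apart.

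The bases before the annotated gene starts are shown for the genes with the rarer motif matches. In the 250 bases before each start, read from the TAIR10.1 assembly on the gene's strand, a script looked on both strands for the E2F site (TTTCCCGC or TTTGGCGC), the telo-box (AAACCCTA), the site II element (TGGGCC) and a TATA sequence (TATAAA). The E2F site lay before ROS1 alone of the 10 genes, against 1% of 19909 tested genes. Site II lay before SHH1 and DCL3, against 16.5%, the TATA sequence before 5 of the 10, against 46.2%, and the telo-box before none, against 3.59%. A match is a description of letters, not a site. The windows of these 3 genes are chr2:15314808-15315057 on the minus strand, chr1:5237794-5238043 on the plus strand and chr3:15753137-15753386 on the plus strand, with the E2F or site II letters in capitals.
ROS1: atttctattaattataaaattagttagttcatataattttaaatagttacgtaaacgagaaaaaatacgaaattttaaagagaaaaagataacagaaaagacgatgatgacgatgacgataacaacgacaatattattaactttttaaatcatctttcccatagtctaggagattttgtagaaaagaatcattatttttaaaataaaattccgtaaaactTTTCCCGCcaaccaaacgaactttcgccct
SHH1: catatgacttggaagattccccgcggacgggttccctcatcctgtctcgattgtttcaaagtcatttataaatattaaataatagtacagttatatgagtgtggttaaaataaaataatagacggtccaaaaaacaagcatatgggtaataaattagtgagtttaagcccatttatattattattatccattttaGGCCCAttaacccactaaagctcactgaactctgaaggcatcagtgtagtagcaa
DCL3: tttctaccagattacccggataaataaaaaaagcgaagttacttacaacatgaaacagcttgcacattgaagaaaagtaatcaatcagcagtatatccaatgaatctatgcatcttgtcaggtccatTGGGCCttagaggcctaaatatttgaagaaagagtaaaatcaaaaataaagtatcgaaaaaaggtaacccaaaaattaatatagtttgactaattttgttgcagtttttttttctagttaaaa

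The libraries held 39483328 to 43434901 counts each, and all 10 genes passed the filter on low counts that left 20471 genes to test. Of the mutated genes, SSRP1 fell in ssrp1-2 to 20.7, 19.7 and 17.9 CPM (counts scaled to library size with TMM, the trimmed mean of M-values) from 38.9, 48.4 and 44.2 in Columbia-0. SPT16 stood at 27.8, 55.4 and 30.0 CPM in spt16-2 against 44.8, 62.0 and 54.6 in Columbia-0, so the library labelled spt16-2 replicate 2 lay within the wild-type range. NRPB2 was at 69.2, 66.5 and 65.4 CPM in nrpb2-3, above the 36.5, 47.3 and 43.0 of Columbia-0, and a transcript level does not check this allele. Columbia-0 replicate 1 was the lowest of its group for 8 of the 10 genes. In nrpb2-3, 8 of 8 leaf mesophyll markers fell, where 15.1% of tested genes did. Their summed level was 24500 to 48700 CPM against 88500 to 104000 in Columbia-0. There 6 of 8 tested shoot meristem markers rose, where 15.8% of tested genes did, with a sum of 108 to 133 against 47.4 to 65.0 CPM. Most of this sum was CLV1, with means of 73.7 and 46.4 CPM. Of 8 dividing cell markers in nrpb2-3, 3 rose and 5 did not pass. Of 8 root markers 3 were tested there and 2 rose, PYK10 and WOX5. The other, CASP1, had a log2 fold change of -1.07 with all nrpb2-3 libraries below Columbia-0, without passing the test. The root sum was 157 to 283 against 70.8 to 107 CPM, most of it PYK10 (means of 209 and 83.4 CPM). PLT1 and RSL4 were at 0 in both genotypes. The meristem sum was 82.7 to 97.6 CPM in ssrp1-2 and 68.2 to 83.5 in spt16-2. Of the 8 tested meristem markers 2 rose in ssrp1-2, STM and CUC2, where 0.454% of tested genes did. None passed in spt16-2, where 0.376% of tested genes rose. All 8 had log2 fold changes above 0 in both mutants. The part of tissue makeup in the results below was not tested.

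In Columbia-0 the 10 genes differed widely in level. Per kilobase of exon, AGO4 led with 14.4 ± 2.67 CPM per kb (SD, n = 3), followed by ROS1 with 7.89 ± 2.01, NRPD2 with 5.51 ± 1.15 and SHH1 with 5.17 ± 0.499. DRM2 had 3.47 ± 0.299 and DRD1 1.95 ± 0.0683 CPM per kb. RDR2 (1.41 ± 0.319), NRPE1 (1.37 ± 0.529), DCL3 (1.18 ± 0.471) and NRPD1 (1.13 ± 0.293) closed the order, and the libraries of these last neighbours overlapped, as did those of ROS1, NRPD2 and SHH1 in turn. AGO4 was at the head and DRM2 the fifth in all 4 genotypes. In nrpb2-3 AGO4 had 23.2 ± 1.22 CPM per kb, NRPD2 (8.24 ± 0.976) stood ahead of ROS1 (7.52 ± 0.673) with overlapping libraries, and NRPD1 was last with 1.25 ± 0.134. There NRPD1 lay below every other gene of the 10 in all libraries, which it did not in Columbia-0.

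In nrpb2-3, 7 of the 10 genes rose against Columbia-0 and none fell, where 15.8% of all tested genes rose and 15.1% fell. The test was the edgeR quasi-likelihood test, with p adjusted by Benjamini-Hochberg over the whole table and called under 0.05. The 7 were NRPE1, NRPD2, RDR2, DCL3, AGO4, DRD1 and DRM2, and for the same 7 all nrpb2-3 libraries lay above all Columbia-0 libraries, as they did for 24.3% of tested genes. The median log2 fold change of the 10 was 0.64, beside 0.05 over all tested genes. SHH1, NRPD1 and ROS1 did not pass the test. Since 8 of the 10 genes have more than 3000 exon bases, the longer genes are the closer background. Of 2500 such genes 30.8% rose and 5.36% fell, with a median of 0.29.

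**Figure D1:**
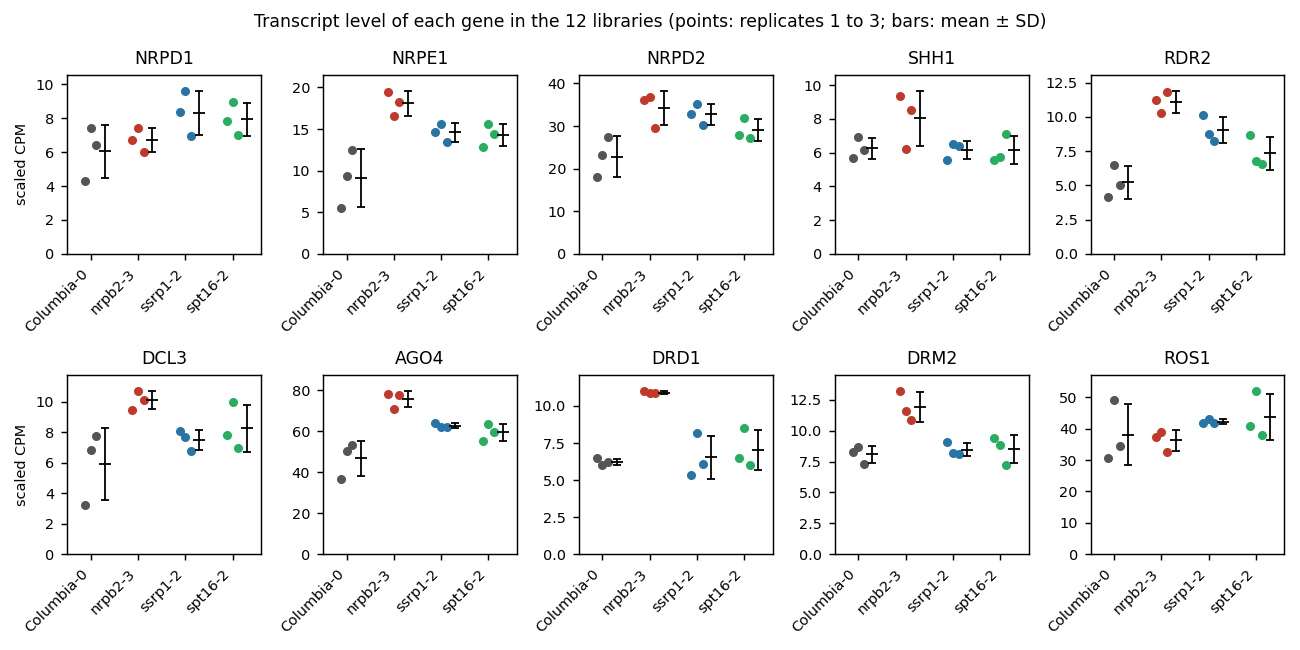
Scaled CPM of each gene (vertical axis, from 0) in the 12 libraries by genotype, with points for replicates 1 to 3 and bars for the mean ± SD. For NRPE1, NRPD2, RDR2, DCL3, AGO4, DRD1 and DRM2 the 3 nrpb2-3 points stand above the 3 Columbia-0 points, and ROS1, NRPD1 and SHH1 overlap.

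Among the polymerase subunits, the largest subunit of Pol V rose and that of Pol IV did not pass. NRPE1, the Pol V subunit, had 5.47, 9.38 and 12.5 CPM in Columbia-0, 19.5, 16.6 and 18.3 in nrpb2-3, 14.6, 15.6 and 13.4 in ssrp1-2, and 12.9, 15.6 and 14.4 in spt16-2. All 9 mutant libraries were above the 3 wild-type ones, and the wild-type libraries were spread more widely than those of any mutant. The log2 fold change in nrpb2-3 was 0.99 ± 0.22 (SE, adjusted p = 0.0043 in edgeR), and 0.73 without Columbia-0 replicate 1.

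NRPD1, the Pol IV subunit, had 4.33, 7.42 and 6.42 CPM in Columbia-0, 6.74, 7.43 and 5.99 in nrpb2-3, 8.35, 9.60 and 6.98 in ssrp1-2, and 7.87, 8.95 and 6.99 in spt16-2. The nrpb2-3 libraries lay inside or beside the wild-type range, with a log2 fold change of 0.15 ± 0.20 (edgeR adjusted p = 0.60) and a 95% interval from -0.32 to 0.62. NRPD2, the subunit that both polymerases share, had 18.0, 23.1 and 27.4 CPM in Columbia-0, 36.2, 36.8 and 29.5 in nrpb2-3, and 27.8, 31.9 and 27.3 in spt16-2, and its nrpb2-3 log2 fold change was 0.58 ± 0.15 (edgeR adjusted p = 0.010). NRPD2 is the only one of the 10 with 100-base exon windows found elsewhere in the genome, 2.09% of them, and its copy NRPD2B was at 4.24, 6.29 and 6.93 CPM in Columbia-0 and at 8.22, 6.58 and 8.05 in nrpb2-3 (log2 fold change 0.39 ± 0.18, edgeR adjusted p = 0.12).

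Of 5 ratios between genes, per length, looked at after these values were seen, 4 differed in nrpb2-3 from Columbia-0 without overlap. NRPE1 over NRPD1 was 1.02, 1.02 and 1.58 in Columbia-0 and 2.35, 1.81 and 2.48 in nrpb2-3. RDR2 over NRPD1 was 1.40, 1.27 and 1.13 in Columbia-0 and 2.41, 2.00 and 2.86 in nrpb2-3. ROS1 over DRM2 was 1.79, 2.74 and 2.28 in Columbia-0 and 1.36, 1.62 and 1.45 in nrpb2-3. AGO4 over AGO6 was 23.8, 21.7 and 26.1 in Columbia-0 and 19.8, 16.3 and 14.8 in nrpb2-3. For these 4 the two-sided exact permutation p of 0.1 is the smallest that 3 against 3 libraries allow, and it is 0.3 after adjustment over the 15 comparisons of 5 ratios in 3 mutants. NRPD2 over the sum of NRPD1 and NRPE1 was 2.66, 2.00 and 2.15 in Columbia-0 and overlapped with the 2.08, 2.29 and 1.84 of nrpb2-3 (exact permutation p = 0.5). In ssrp1-2 all 5 ratios overlapped the wild type, and in spt16-2 all but the NRPD2 ratio, at 1.97, 1.92 and 1.90 (exact permutation p = 0.1).

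Of the siRNA production genes, RDR2 and DCL3 rose and SHH1 did not pass. RDR2, the RNA-dependent RNA polymerase that works with Pol IV, had 4.18, 6.52 and 4.99 CPM in Columbia-0, 11.2, 10.3 and 11.8 in nrpb2-3, 10.1, 8.78 and 8.24 in ssrp1-2, and 8.69, 6.77 and 6.54 in spt16-2. The lowest library of each mutant was above the highest wild-type library, for spt16-2 by a small margin. The log2 fold change in nrpb2-3 was 1.09 ± 0.18 (edgeR adjusted p = 0.00083), the highest of the 10.

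DCL3, the Dicer that cuts the double-stranded RNA, had 3.25, 6.84 and 7.73 CPM in Columbia-0, 9.49, 10.7 and 10.1 in nrpb2-3, 8.08, 7.66 and 6.80 in ssrp1-2, and a mean of 8.25 ± 1.57 (SD, n = 3) in spt16-2. The nrpb2-3 and wild-type libraries do not overlap, and the ssrp1-2 and spt16-2 libraries overlap the wild type. Its log2 fold change was 0.76 ± 0.25 (edgeR adjusted p = 0.033), and the call was lost without Columbia-0 replicate 1 (0.47, adjusted p = 0.071 in edgeR) and without any 1 of the nrpb2-3 libraries (adjusted p from 0.061 to 0.086 in edgeR). SHH1, the protein that brings Pol IV to chromatin, had 5.70, 6.90 and 6.15 CPM in Columbia-0, 5.55, 6.51 and 6.37 in ssrp1-2, 5.57, 5.74 and 7.10 in spt16-2, and 9.35, 6.23 and 8.55 in nrpb2-3, where replicate 2 lay within the wild-type range (log2 fold change 0.36 ± 0.18, edgeR adjusted p = 0.14). Exons of SHH1, DCL3 and DRD1 overlap a neighbour on the opposite strand by 23, 43 and 83 bases, and with the strand setting of the counting not given, reads from there cannot be assigned.

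The effectors all rose in nrpb2-3. AGO4, the Argonaute that carries the small RNAs, had 36.9, 50.2 and 53.4 CPM in Columbia-0, 78.2, 71.1 and 77.7 in nrpb2-3, and 55.1, 63.6 and 59.7 in spt16-2. The 6 libraries of these mutants lay above those of the wild type, and the nrpb2-3 log2 fold change was 0.69 ± 0.13 (edgeR adjusted p = 0.0018). DRD1, the Pol V remodeller, had 6.46, 6.03 and 6.20 CPM in Columbia-0 and 11.0, 10.9 and 10.9 in nrpb2-3. The libraries of DRD1 agreed closely within both groups, and the log2 fold change was 0.81 ± 0.18 (edgeR adjusted p = 0.0043).

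DRM2, the methyltransferase, had 8.28, 8.66 and 7.30 CPM in Columbia-0 and 13.2, 11.6 and 10.9 in nrpb2-3. The log2 fold change of DRM2 was 0.56 ± 0.15 (edgeR adjusted p = 0.011), and without nrpb2-3 replicate 1 it was 0.46 (adjusted p = 0.058 in edgeR). ROS1, the demethylase, had 30.7, 49.1 and 34.5 CPM in Columbia-0, 37.3, 39.0 and 32.7 in nrpb2-3, 41.9, 43.1 and 41.9 in ssrp1-2, and 41.0, 52.0 and 37.9 in spt16-2. Columbia-0 replicate 2 and spt16-2 replicate 2 were its highest libraries, and the 4 genotypes overlapped. The log2 fold change of ROS1 in nrpb2-3 was -0.07 ± 0.16 (edgeR adjusted p = 0.78), with a 95% interval from -0.45 to 0.31.

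Fold changes in nrpb2-3 ran with transcript length over all genes. The median log2 fold change went from -0.17 in genes of up to 1000 exon bases to 0.35 in genes over 4000. With this trend removed from each library, 5 of the 10 genes rose, where 13.4% of tested genes did. These were RDR2 (log2 fold change 0.84), DRD1 (0.60), NRPE1 (0.59), AGO4 (0.48) and DRM2 (0.45), while SHH1 (0.51), DCL3 (0.44) and NRPD2 (0.31) did not pass. On this scale NRPD1 was at -0.20 and ROS1 at -0.39, neither of which passed. With library totals in place of TMM factors all 10 rose, as did 52.2% of tested genes, among them ROS1 with 0.46, so the direction of ROS1 depends on the scale.

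**Figure D2:**
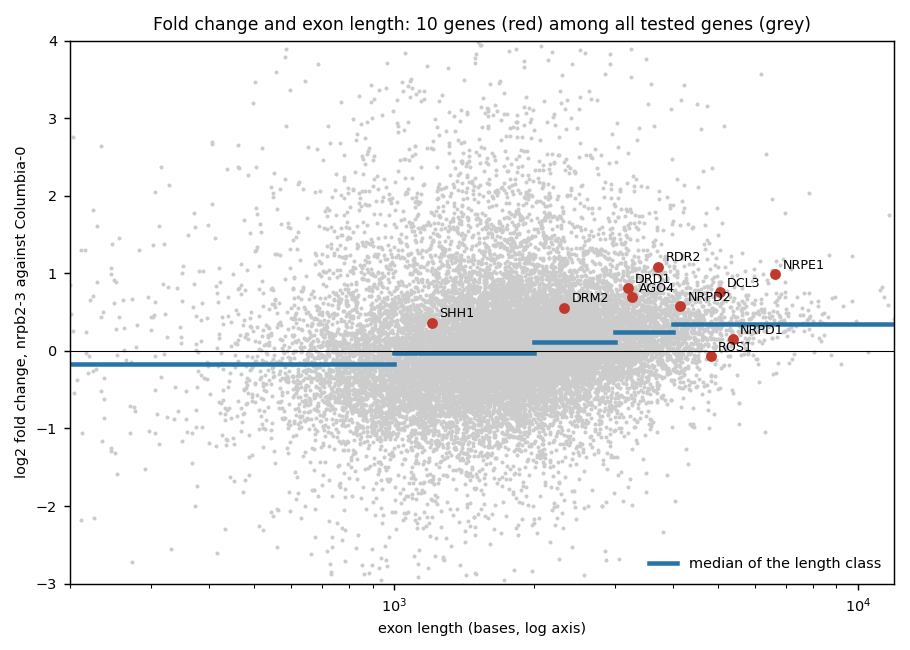
Log2 fold change in nrpb2-3 against Columbia-0 (vertical axis) by exon length in bases (log axis), with tested genes in grey, the 10 genes in red and blue lines for the median of each length class. Genes outside the axes are not drawn. The class medians climb from -0.17 to 0.35, RDR2 and NRPE1 stand above them, and ROS1 and NRPD1 lie below the line of their class.

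**Figure D3:**
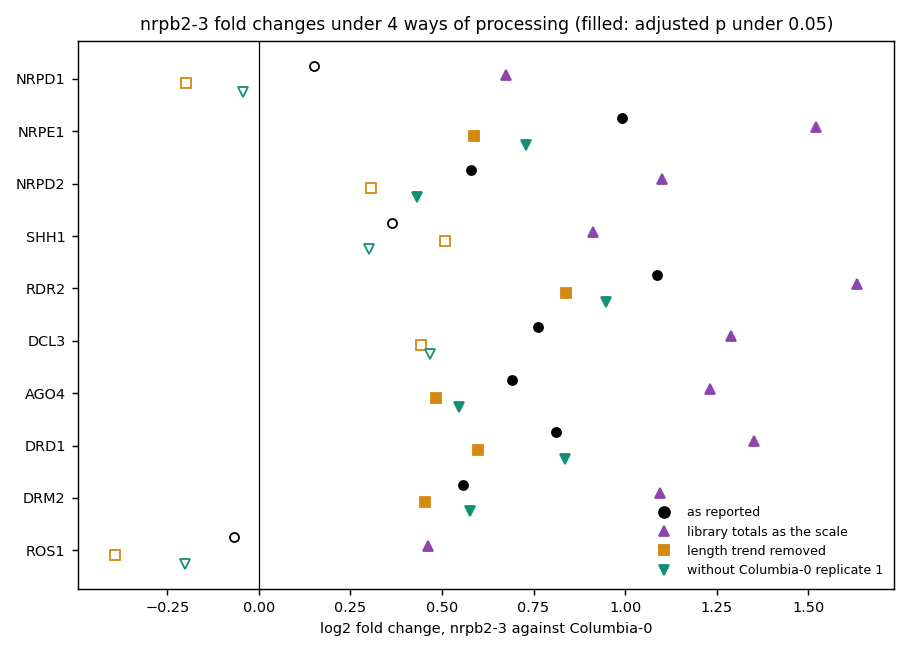
Log2 fold change of each gene in nrpb2-3 against Columbia-0 (horizontal axis) under 4 ways of processing, filled where the edgeR adjusted p is under 0.05. RDR2, NRPE1, AGO4, DRD1 and DRM2 are filled under all 4, and the sign of NRPD1 and ROS1 differs between them.

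In ssrp1-2 none of the 10 genes passed the test against Columbia-0, where 0.557% of all tested genes passed in edgeR. At an unadjusted p under 0.05 there were 5 in edgeR, where 9.37% of tested genes were, and DESeq2 called 1, RDR2, and 1.24% of its tested genes. The log2 fold change of RDR2 was 0.79 ± 0.18 (edgeR adjusted p = 0.087) and that of NRPE1 was 0.67 ± 0.22 (edgeR adjusted p = 0.29), or 0.41 without Columbia-0 replicate 1. All ssrp1-2 libraries lay above all Columbia-0 libraries for NRPE1, NRPD2, RDR2 and AGO4, as they did for 8.09% of tested genes. AGO4 stood at 64.3, 62.1 and 62.1 CPM and NRPD2 at 32.8, 35.1 and 30.3 CPM in ssrp1-2. DRD1, DRM2 and SHH1 had log2 fold changes of 0.07, 0.07 and -0.02.

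In spt16-2 none of the 10 genes passed either, where 0.42% of tested genes passed in edgeR, with 4 at an unadjusted p under 0.05, as 8.2% of tested genes were, and none called by DESeq2, which called 1.03% of its tested genes. NRPE1 had a log2 fold change of 0.65 ± 0.22 (edgeR adjusted p = 0.38) and RDR2 one of 0.49 ± 0.18 (edgeR adjusted p = 0.45). Without Columbia-0 replicate 1 that of NRPE1 was 0.39, and with spt16-2 replicate 2 left out as well it was 0.32, below the 0.40 of RDR2 there. For NRPE1, RDR2 and AGO4 all spt16-2 libraries lay above all Columbia-0 libraries, as they did for 7.38% of tested genes. DRM2 and SHH1 had log2 fold changes of 0.07 and -0.03. The 3 comparisons with the wild type share its libraries, so likeness between the mutants is not counted as a result.

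**Figure D4:**
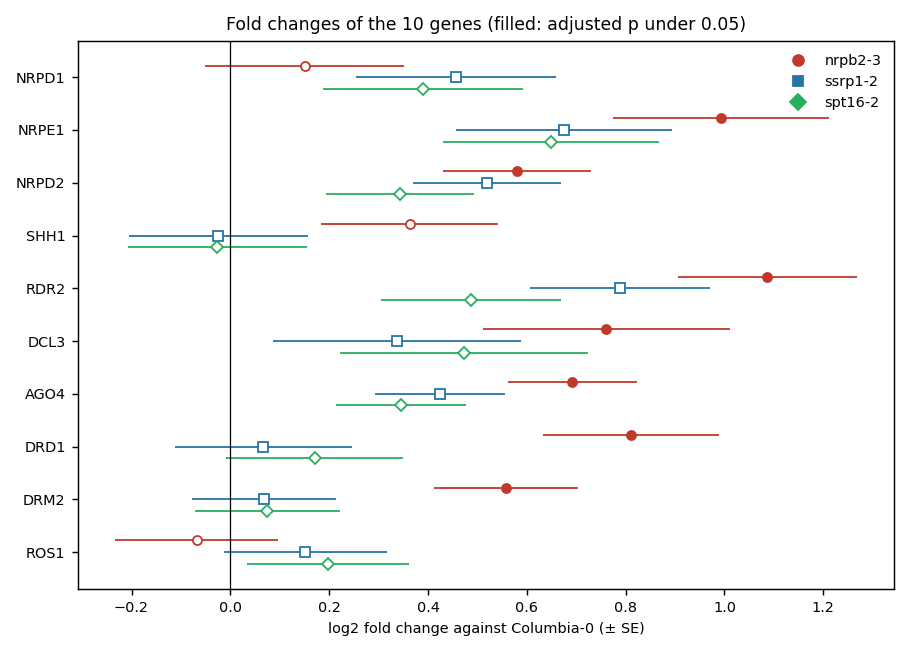
Log2 fold change of each gene against Columbia-0 (horizontal axis, bars ± SE) in nrpb2-3, ssrp1-2 and spt16-2, filled where the edgeR adjusted p is under 0.05. Filled points occur in nrpb2-3 alone. NRPE1 and RDR2 carry the largest values in each mutant, in spt16-2 with DCL3 (0.47) close to RDR2 (0.49). All 3 comparisons share the Columbia-0 libraries, so this likeness is not counted as a result.

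Between spt16-2 and ssrp1-2 none of the 10 genes passed the test in edgeR, where 0.0684% of tested genes did, and none had an unadjusted p under 0.05 or was called by DESeq2, beside 3.02% and 0.185% of the genes tested. Their log2 differences ran from -0.30 for RDR2 to 0.14 for DCL3.

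Against the mean of the FACT mutants, 3 of the 10 genes were higher in nrpb2-3, where 15.6% of tested genes were, and 22.2% of the 2500 over 3000 exon bases, so the share of the 10 was near that of long genes. This comparison tests the difference between the mutants itself. DRD1 was 0.69 ± 0.15 higher on the log2 scale (edgeR adjusted p = 0.0038), with 5.36, 8.15 and 6.07 CPM in ssrp1-2 and 6.47, 8.53 and 6.03 in spt16-2. DRM2 was 0.49 ± 0.12 higher (edgeR adjusted p = 0.0093), with 9.06, 8.21 and 8.14 CPM in ssrp1-2 and 9.41, 8.88 and 7.23 in spt16-2. RDR2 was 0.45 ± 0.15 higher (edgeR adjusted p = 0.038).

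The nrpb2-3 libraries lay above all 6 FACT mutant libraries for NRPE1, RDR2, AGO4, DRD1 and DRM2, as they did for 16.2% of tested genes. AGO4 differed by 0.31 ± 0.11 (edgeR adjusted p = 0.051), and with the replicate number as a block by 0.31 (adjusted p = 0.032 in edgeR). With Columbia-0 replicate 1 and spt16-2 replicate 2 both left out 6 passed, where 16.7% of tested genes were higher. NRPE1, DCL3 and AGO4 were the additional ones. With library totals 8 passed, where 52.1% of tested genes were higher. Without nrpb2-3 replicate 1 the only gene of the 10 that passed was DRD1, where 10.7% of tested genes were higher. With the length trend removed, RDR2 did not pass (0.29, adjusted p = 0.16 in edgeR), SHH1 was higher (0.47), and NRPD1 and ROS1 were lower, by -0.47 and -0.42 on the log2 scale.

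The rest of the pathway and of DNA demethylation was taken as a list of 38 other genes, of which 37 were tested. In nrpb2-3, 21 rose and none fell, with a median log2 fold change of 0.54, where 15.8% of all tested genes rose and 15.1% fell. Of tested genes over 3000 exon bases, a length that 19 of the 37 pass, 30.8% rose and 5.36% fell. The absence of lower genes depends on the processing. With the length trend removed 16 were higher and 3 lower, where 13.4% and 15.2% of all tested genes were. The lower ones were RDM1 (-0.47), SUVH9 (-0.50) and RDR6 (-0.39). With the replicate block alone 24 were higher and 1, SUVH9, lower (-0.34), where 19.9% and 18.8% of all tested genes were. Of the chromatin remodellers around Pol IV, 3 of 4 rose: CHR31 went from 0.410, 0.462 and 0.376 CPM in Columbia-0 to 2.62, 4.46 and 4.09 in nrpb2-3 (log2 fold change 3.15 ± 0.42, edgeR adjusted p = 0.00021), and CHR42 rose by 2.14 ± 0.33 (edgeR adjusted p = 0.00051). CHR31 and CHR42 rest on only 44 and 63 counts over the Columbia-0 libraries, which limits the precision of these folds. None of 5 smaller subunits and assembly factors of Pol IV and Pol V passed. Of the small RNA processing genes 3 of 4 rose, among them DCL2, a Dicer of antiviral and transgene silencing, from 7.84, 7.16 and 9.40 CPM to 19.0, 16.1 and 22.1 (log2 fold change 1.23 ± 0.17, edgeR adjusted p = 0.00025). The annotated span of DCL2 overlaps that of a gene on the same strand. Whether their exons share bases was not examined, so some reads from there may not be assignable.

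Both close relatives of AGO4 on the list rose in nrpb2-3. AGO6 went from 1.49, 2.22 and 1.96 to 3.79, 4.18 and 5.06 CPM, and AGO9, known from ovules, from 0.585, 0.548 and 0.456 to 2.17, 1.60 and 2.89 CPM. The AGO9 values rest on only 56 counts over the Columbia-0 libraries. AGO9 was also at 1.14, 3.09 and 2.24 CPM in ssrp1-2 and at 1.75, 3.41 and 1.29 in spt16-2, which DESeq2 called and edgeR did not (edgeR adjusted p = 0.071 and 0.081). Floral markers moved with the FACT mutants, with 5 of 7 higher in each. Of all tested genes 0.454% were higher in ssrp1-2 and 0.376% in spt16-2. The summed floral levels were 22.2 to 31.0 CPM in ssrp1-2 and 28.3 to 32.8 in spt16-2 against 3.32 to 5.94 in Columbia-0. The part of floral tissue in the AGO9 values was not tested. In nrpb2-3, where AGO9 rose too, the floral sum was 1.30 to 2.13 CPM. There 3 of the 7 markers were lower and none higher, where 15.1% and 15.8% of tested genes were.

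Of 11 Pol V recruitment genes and effectors 7 rose, among them FDM1, FDM2 and MORC6, beside the same 15.8% of all tested genes and 30.8% of the longer ones. FDM1 and FDM2, RNA-binding partners of the complex that acts after Pol V, rose by 0.96 ± 0.13 and 1.44 ± 0.20 (edgeR adjusted p = 0.00024 and 0.00027). MORC6, an ATPase of heterochromatin silencing, rose by 0.94 ± 0.16 (edgeR adjusted p = 0.0011). RDM1 and SUVH9 of this group, named after their values were seen, had all nrpb2-3 libraries below all Columbia-0 libraries, as did 19.9% of tested genes, without passing the test (log2 fold change -0.30 ± 0.14 and -0.33 ± 0.13, edgeR adjusted p = 0.11 and 0.074). Of the 9 demethylation genes 6 rose, against the same shares, among them DML2, a relative of ROS1, from 6.55, 6.67 and 7.41 to 9.80, 12.7 and 12.1 CPM.

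In ssrp1-2 none of the other pathway genes passed in edgeR, where 0.557% of all tested genes did. At an unadjusted p under 0.05 in edgeR there were 9 of 37, where 9.37% of all tested genes were. DESeq2 called 3, where it called 1.24% in all. In spt16-2 CHR31 alone passed in edgeR, where 0.42% of all tested genes did. There 6 of 37 had an unadjusted p under 0.05 in edgeR, as did 8.2% of all tested genes. CHR31 rose to 0.903, 3.26 and 1.93 CPM (log2 fold change 2.28 ± 0.42, edgeR adjusted p = 0.030). That call was lost without any 1 of the Columbia-0 libraries and without spt16-2 replicate 2 or 3. DRM1, a relative of DRM2, was below the filter: it had no counts in Columbia-0, 5, 4 and 1 in nrpb2-3, 3, 4 and 8 in ssrp1-2, and 7, 14 and 13 in spt16-2. Its level was 2.22-fold in nrpb2-3, 4.69-fold in ssrp1-2 and 10.3-fold in spt16-2 relative to a floor of 3 counts over the wild-type group. The counting error of these few mutant counts is not included.

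**Figure D5:**
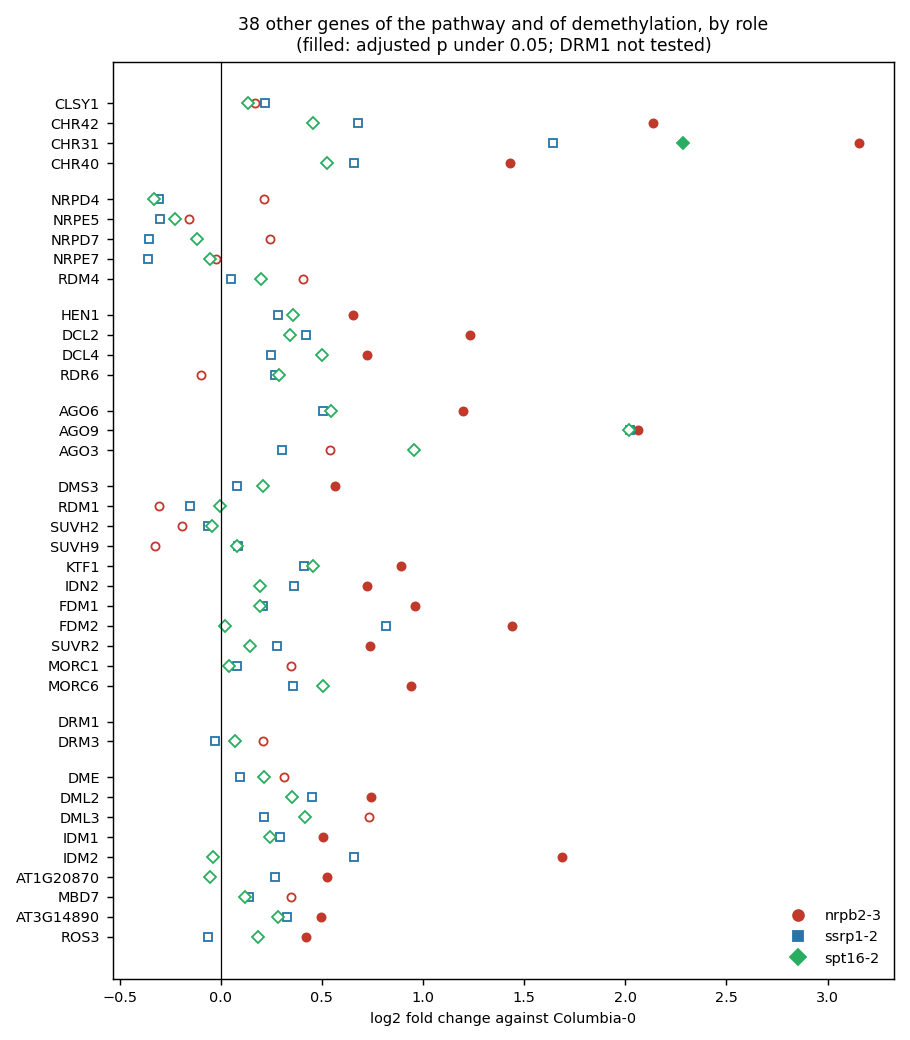
Log2 fold change against Columbia-0 (horizontal axis) of 38 other pathway and demethylation genes grouped by role, filled where the edgeR adjusted p is under 0.05, with DRM1 not tested. In nrpb2-3, 21 points are filled and all are above 0, and CHR31 alone is filled in spt16-2.

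The patterns most like NRPE1 over the 12 libraries were those of AGO4 (Pearson r = 0.97 of log2 CPM + 1), EMB1135 (0.964) and AT5G14610 (0.963), out of 20470 other tested genes. For ROS1 they were AT1G76550 (0.91), PSY1R (0.902) and AT4G16920 (0.901). These are descriptions over libraries that share genotype and scale.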

How the data were processed

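Total RNA of whole seedlings was sequenced in 12 libraries, grouped by the genotype in the labels. The deposited counts per gene were made by the authors, who per the submitters' processing notes used fastp 0.23.4, HISAT2 2.2.1 and the build TAIR10. How reads were counted, with which strand setting and with what rule for shared reads, is not given in the sources used here. A second deposited table, named for TPM, holds a length-scaled signal whose columns sum to 652496 to 1181546, and it served as an alternative only.

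Of 32833 genes, 26456 had a count and 20471 passed filterByExpr (minimum count 10). Counts were fitted with edgeR 4.0.16 in R 4.3.3 (TMM, robust quasi-likelihood, all 12 libraries, genotype as the factor), with Benjamini-Hochberg adjustment over tested genes and a threshold of 0.05. The SE is the log2 fold change over the root of F, and 95% intervals use 8 residual degrees of freedom. The code was tested on simulated data.

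Levels per kb use exon lengths of TAIR10.1, which match the lengths behind the deposited signal within 1% for 99.5% of 15838 genes. Sequences and gene names come from the same assembly. Alternatives were RLE factors, library totals, DESeq2 1.42.0, limma 3.58.1 on log2 of the signal plus 1 or 0.1, no filter, the compared groups alone, organelle genes left out, a length trend removed, the replicate number as a block, and each library left out in turn. Leaving out Columbia-0 replicate 1 and spt16-2 replicate 2 together was chosen after seeing the data. The genes and lists were chosen with earlier results of these data known. All 10 genes are named, as are up to 6 called list genes per comparison with the smallest adjusted p, and close relatives of the 10.

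Same-numbered libraries deviated together in spt16-2 and Columbia-0 (r = 0.201 to 0.49) and between the mutants (0.225 to 0.465), so the numbers pair those. Columbia-0 replicate 1 did not pair with nrpb2-3 (0.0227) or ssrp1-2 (-0.0325). Columbia-0 replicates 2 and 3 did, with r = 0.39 and 0.275 for nrpb2-3 and 0.541 and 0.379 for ssrp1-2. The main fit left this pairing out, and the replicate block was an alternative. No pair of replicates agreed within sampling noise. No molecular identifiers mark the reads, so the floor covers counting error of the wild-type group only.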

Additional observations from a re-analysis of the deposited data

How the results depend on the processing

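In nrpb2-3 against Columbia-0, 5 to 7 of the 10 genes were called with 1 library left out (9.66% to 13.5% of all tested genes higher). With the replicate block 7 were called (19.9% higher). With the block and the length trend removed 7 were called, 6 higher and 1 lower, ROS1 at -0.38 (17.1% of all tested genes higher and 19.4% lower). In ssrp1-2 DESeq2 called 1, and 1.24% of its tested genes. Against the mean of the FACT mutants the count was 8 with library totals (52.1% of all tested genes higher). It was 6 with Columbia-0 replicate 1 and spt16-2 replicate 2 both left out (16.7% higher). It was 4 with limma unfiltered (13.9%), 5 with limma at pseudocount 1 (17.8%) or 0.1 (17%), and 5 with the compared groups alone (17%). With the length trend removed it was 5 without the block (14.4% of tested genes higher, 16% lower) and 5 with it (18.2% and 19.9%). NRPD1 and ROS1 were lower in both. The block alone gave 4 (19.5% higher), and leaving out 1 library gave 1 to 3 (8.33% to 14.7% higher). The other pathway genes called in nrpb2-3 numbered 32 with library totals (52.2% of all tested genes higher). They numbered 16 to 19 with 1 library left out (9.66% to 13.5% higher). Of these, 1 was lower without Columbia-0 replicate 3 (RDM1, where 13.3% of all tested genes were lower) or nrpb2-3 replicate 1 (SUVH9, where 12.5% were). The other pathway genes were 19 higher and 3 lower with the length trend removed and the block, where 17.1% and 19.4% of all tested genes were. The cause was not tested.

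Signs turned as follows (log2). In nrpb2-3, ROS1 was 0.46 with library totals, 0.020 in limma with pseudocount 1, with or without the filter, 0.023 with pseudocount 0.1, and -0.20 to 0.15 with 1 library left out. NRPD1 was -0.20 with the length trend removed, with or without the block, -0.042 to 0.32 with 1 library left out (the lowest without Columbia-0 replicate 1), and -0.056 with Columbia-0 replicate 1 and spt16-2 replicate 2 both left out. In ssrp1-2, SHH1 was 0.045 with library totals, 0.030 with the length trend removed, 0.029 with the block too, and -0.086 to 0.052 with 1 library left out. DRD1 was -0.016 with length trend and block and -0.12 to 0.19 with 1 library left out. In spt16-2, SHH1 was 0.083 with library totals, 0.043 with the length trend removed, 0.038 with the block too, and -0.14 to 0.048 with 1 library left out. There DRM2 was -0.0043 to 0.18 with 1 library left out and ROS1 -0.085 without Columbia-0 replicate 1 and spt16-2 replicate 2. Against the FACT mutants, library totals gave NRPD1 0.17 and ROS1 0.19, and the length trend removed gave NRPD2 -0.016, or -0.019 with the block. Of these turned values, ROS1 with library totals alone passed the test (edgeR adjusted p = 0.042). RDR2, DCL3, NRPD1, DRD1 and SHH1 rest on 555 to 663 counts over the 3 Columbia-0 libraries, which limits their precision.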
